A study of Mus musculus with 8 samples.

Results

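The Cyp2b genes of the mouse and Nr1i3, the gene of their receptor, were described by the open chromatin called around them in fasted liver. Regions were selected on the positions of the peaks called in the 8 libraries: a consensus region was taken when its nearest protein-coding gene, by distance to the gene span and within 100 kb, was Cyp2b9, Cyp2b10, Cyp2b13, Cyp2b19, Cyp2b23 or Nr1i3. This gave 17 of the 49587 consensus regions. Of these, 8 were assigned to Cyp2b10, 3 to Cyp2b13, 2 to Cyp2b9, 2 to Cyp2b19 and 2 to Nr1i3, and none to Cyp2b23. No region of these genes lay beyond the limit, and the farthest lay 61719 bp from its gene, so the limit removed nothing. Such a region exists because a peak was called there in at least 1 library, and the genes were picked with calls in these libraries known, so calls, folds and p-values at these regions are given as a description, with no test.

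Open chromatin was measured by ATAC-seq, which cuts and tags accessible DNA with a transposase, in flash-frozen liver of male C57BL/6 mice aged 9 weeks and fasted for 24 h from an afternoon to the next. The 8 libraries comprised 2 of wild type, 2 of Cpt2 liver knockout (Cpt2 L-/-), 2 of Ppara knockout (Ppara -/-) and 2 of the double knockout (Cpt2 L-/- ; Ppara -/-), in which the loss of Cpt2 was in liver and that of Ppara in the whole body. Cpt2 encodes a carnitine palmitoyltransferase that long-chain fatty acids need for oxidation in mitochondria, and Ppara encodes a nuclear receptor activated by fatty acids. All mice were fasted, so no fed liver stood beside them, and the driver of the liver deletion and the origin of the 2 libraries of a genotype from separate mice are not given in the sources used here. Wild type and Cpt2 knockout libraries are called Ppara-carrying below, and Ppara knockout and double knockout libraries Ppara-lacking.

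Cyp2b enzymes are cytochrome P450 monooxygenases that oxidise drugs, steroids and fatty acids in the endoplasmic reticulum of the hepatocyte. Nr1i3 encodes CAR, the constitutive androstane receptor, a nuclear receptor that is held in the cytoplasm, enters the nucleus when a drug such as phenobarbital is given, and binds DNA as a partner of the retinoid X receptor. Cyp2b10 is its best-known target in mouse liver and is widely used as the readout of CAR activity. Cyp2b9 and Cyp2b13 are known for higher expression in liver of female than of male mice, and Cyp2b19 for expression in keratinocytes of the skin.

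The 5 Cyp2b genes lie on chromosome 7 over 875 kb of mm10, in the order Cyp2b10 (25897658 to 25926624), Cyp2b13 (26061388 to 26096197), Cyp2b9 (26173350 to 26210661), Cyp2b23 (26665227 to 26686430) and Cyp2b19 (26757142 to 26772630). Nr1i3 lies on chromosome 1 (171213934 to 171218845). The 250 bases before the start site are shown for 4 genes, from RefSeq on GRCm38.p6, the assembly of mm10. Nr1i3 and Cyp2b10 are shown because a consensus region covered their windows, and Cyp2b13 and Cyp2b9 because their windows were nearly the same and held no region. All 4 are on the plus strand and are written 5′ to 3′, and capitals mark AGGTCA, the core sequence bound by many nuclear receptors, and TTGCNNAA, a C/EBP-type sequence, on either strand.
Nr1i3: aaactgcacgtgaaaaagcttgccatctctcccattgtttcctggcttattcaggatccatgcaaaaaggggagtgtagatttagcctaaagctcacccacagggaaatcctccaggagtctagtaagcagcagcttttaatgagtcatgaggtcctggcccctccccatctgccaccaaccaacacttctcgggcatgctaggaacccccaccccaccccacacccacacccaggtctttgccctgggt
Cyp2b10: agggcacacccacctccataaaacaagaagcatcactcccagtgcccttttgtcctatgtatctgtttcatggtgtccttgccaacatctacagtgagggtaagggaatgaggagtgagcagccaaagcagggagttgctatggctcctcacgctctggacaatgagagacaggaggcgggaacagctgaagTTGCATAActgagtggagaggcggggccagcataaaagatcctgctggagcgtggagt
Cyp2b13: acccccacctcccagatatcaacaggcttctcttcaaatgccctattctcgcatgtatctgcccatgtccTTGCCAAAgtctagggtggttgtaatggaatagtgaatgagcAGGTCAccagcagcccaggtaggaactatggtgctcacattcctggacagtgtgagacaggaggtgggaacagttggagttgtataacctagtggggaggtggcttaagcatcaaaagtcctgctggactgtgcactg
Cyp2b9: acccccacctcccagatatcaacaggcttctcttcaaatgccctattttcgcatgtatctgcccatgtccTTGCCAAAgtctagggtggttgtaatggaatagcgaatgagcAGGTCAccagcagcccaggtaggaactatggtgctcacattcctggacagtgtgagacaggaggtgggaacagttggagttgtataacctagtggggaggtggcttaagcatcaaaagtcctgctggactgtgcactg
These windows are chr1:171213720-171213969, chr7:25897408-25897657, chr7:26061245-26061494 and chr7:26173159-26173408.

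All 6 genes matched 1 promoter entry each, with 300 bases from 250 before to 50 after the start. Over those 300 bases Cyp2b13 and Cyp2b9 were identical at 298 positions (99.3%) and differed by C48T and T104C, counted from 1 at the 5′ end with the base of Cyp2b13 first. Reads from such copies can be placed on either gene, and how the authors treated them is not given in the sources used here. The Cyp2b10 window shared 77.2% of 289 aligned bases with that of Cyp2b13, 85.1% of 261 with Cyp2b23 and 79.8% of 277 with Cyp2b19. The core sequence AGGTCA was found in the windows of Cyp2b13, Cyp2b9, Cyp2b23 and Cyp2b19 and was not among the letters of those of Cyp2b10 and Nr1i3, where 16.26% of all 32851 windows hold it. TTGCNNAA was found in all 5 Cyp2b windows and not in that of Nr1i3, against 10.8% of all windows. In Cyp2b10, Cyp2b23 and Cyp2b19 its match read TTGCATAA, beginning at -58, -85 and -40 from the start site, and in Cyp2b13 and Cyp2b9 it read TTGCCAAA, beginning at -180. The TATA-type sequence ATAAAA (either strand; it overlapped no other match in these 6 windows) was found in the windows of Cyp2b10, Cyp2b23 and Cyp2b19 and in 18.47% of all windows, and not in those of Cyp2b13, Cyp2b9 and Nr1i3. Direct repeats of AGGTCA spaced by 1 or by 4 bases, each of which holds the core sequence, were searched on both strands and were in none of the 6 windows and in 0.04% and 0.02% of all. These matches describe letters in the windows and say nothing of binding.

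For each library the authors deposited a list of peaks with a fold over the local background and a −log10 p per peak, both values of the authors' peak caller. A region was counted as called in a library whose list held a peak sharing 1 bp or more with it. The lists held 28733 to 39296 peaks in the Ppara-carrying and 18132 to 22715 in the Ppara-lacking libraries, so fewer calls in the latter are the rule over the genome: each Ppara-carrying library called 56.9% to 77.7% of all consensus regions, and each Ppara-lacking one 35.5% to 44.5%. Median folds of the lists were 6.555 to 7.455 with Ppara and 5.645 to 6.082 without it. The number that the peak names carry was 441, 443, 446 and 4717 in the Ppara-carrying and 6831 to 6834 in the Ppara-lacking libraries; what it stands for is not given, and anything it marks cannot be told apart from Ppara status. At the targeted genes, 1 of 3 regions of Cpt2 and 2 of 25 of Ppara were called in all 8 libraries, and no region of Cpt2 separated Cpt2 knockout from wild type. Of the Ppara regions, 7 were called in each library with Ppara and none without, as was 1 of Cpt2, where 6.82% of all regions were. At both genes 0 were called the reverse way, where 0.0686% of all regions were. The deleted exons are not given, so the calls do not check the genotypes. Each of the 8 hepatocyte marker genes had a region called in all 8 libraries, and 46 to 57 of their 80 regions were called in the Ppara-carrying and 38 to 44 in the Ppara-lacking libraries. Of regions at endothelial markers, 11 to 26 of 37 were called with Ppara and 4 to 6 without, of those at cholangiocyte markers 5 to 9 of 11 and 0 to 1, of those at stellate markers 2 to 5 of 8 and 0 to 1, and of those at macrophage markers 0 to 2 of 3 and 0. Adgre1, Cd5l, Marco, Des, Dcn, Krt19, Krt7 and the 5 lymphocyte markers had no region. As for the Cyp2b calls below, the ranges with and without Ppara did not overlap at hepatocyte, endothelial, cholangiocyte and stellate markers. At macrophage markers they overlapped. The hepatocyte share was 57.5% to 71.2% with Ppara and 47.5% to 55% without, a smaller gap than that over all regions. The part of these cell types in the results was not tested. In whole liver, fewer cells of a type and less open chromatin per cell cannot be told apart.

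Calls at the Cyp2b genes were fewer in every Ppara-lacking library than in any Ppara-carrying one. Of the 15 Cyp2b regions, wild type 1 and 2 called 6 and 12, Cpt2 knockout 1 and 2 called 10 and 11, Ppara knockout 1 and 2 called 3 each, and double knockout 1 and 2 called 3 and 4. The means were 9.75 ± 2.63 regions in the Ppara-carrying and 3.25 ± 0.5 in the Ppara-lacking libraries (SD, n = 4 each), a difference of -6.5. As a share of regions this was 65% against 21.7%, where all consensus regions gave 69.4% against 38.9%. Wild type 1, the shortest list of the Ppara-carrying libraries, lay nearest to the Ppara-lacking ones. When each list was held to its strongest 18132 peaks, the length of the shortest, the 8 libraries called 3, 3, 3, 5, 3, 3, 2 and 4 Cyp2b regions in the same order, and the groups overlapped with a difference of -0.5. In lists of equal length the lower number without Ppara was thus within the overlap of the libraries.

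**Figure D1:**
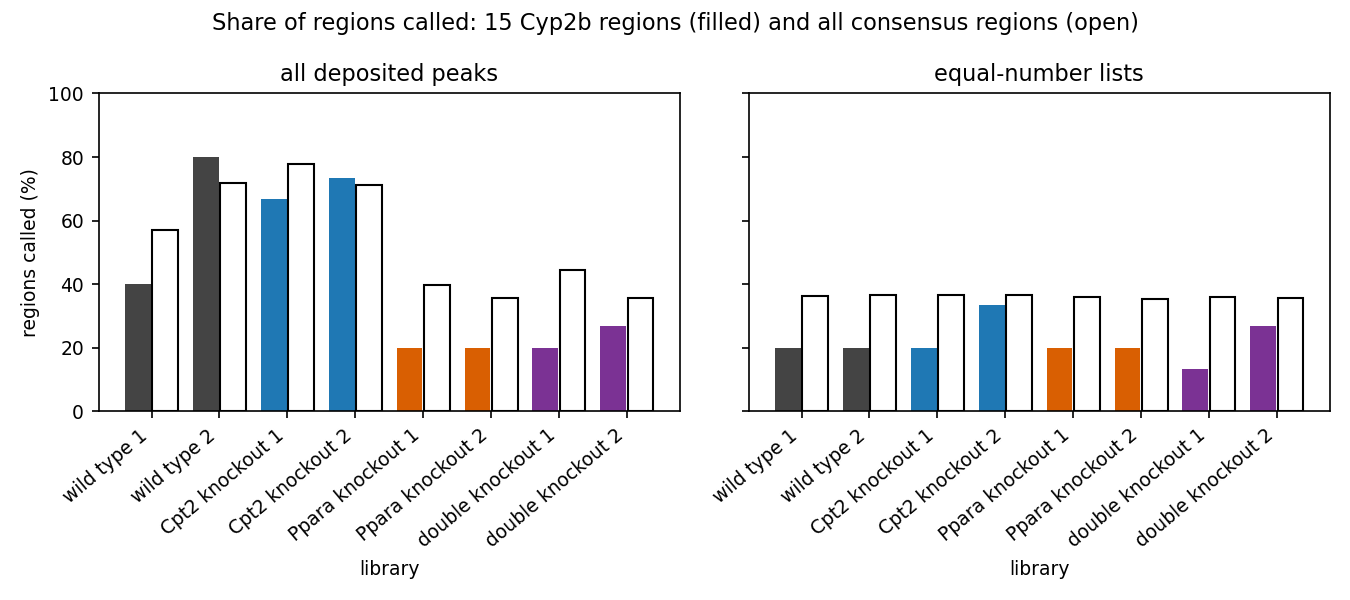
Percent of the 15 Cyp2b regions (filled bars, coloured by genotype) and of all consensus regions (open bars) called in each library, with all deposited peaks on the left and with each list held to its strongest 18132 peaks on the right. On the left the Cyp2b share is 40% to 80% in the Ppara-carrying and 20% to 26.7% in the Ppara-lacking libraries; on the right the ranges overlap.

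Which regions gave this pattern is shown in the grid of calls by region. Called in all 4 libraries with Ppara and in none without it were 4 of the 17 regions, namely 1 at Nr1i3, 1 at Cyp2b10 and 2 at Cyp2b13, and none was called in all 4 Ppara-lacking and no Ppara-carrying library. Over all consensus regions the shares were 6.82% and 0.0686%. Called in at least 1 Ppara-carrying and no Ppara-lacking library were 11 of the 17, against 42.3% of all regions, and the reverse held for 1, against 5.43%. Called in all 8 libraries were 2, at Cyp2b10 and Cyp2b19, against 22.7% of all. Called in 1 library alone were 3, all assigned to Cyp2b10, against 23% of all. With counts this small, no share is read as particular to these genes.

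**Figure D2:**
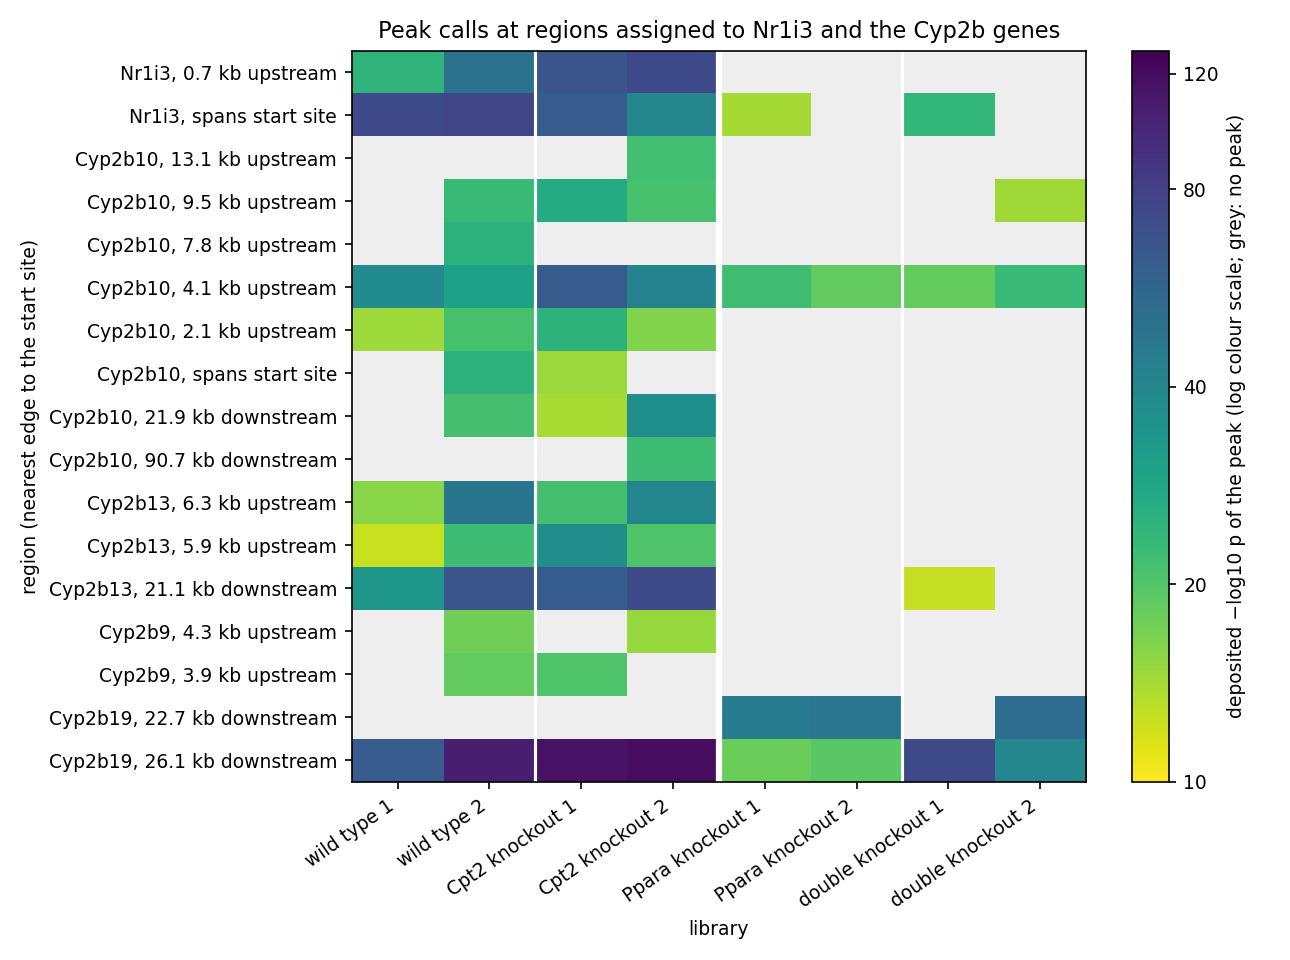
Each row is 1 of the 17 regions, named by its gene and the distance from its nearest edge to the gene's start site, and each column is 1 library. Colour is the authors' deposited −log10 p of the peak on a log scale, and grey marks no peak. The 4 columns on the right are grey except at the Nr1i3 start site, 2 Cyp2b10 regions, 1 Cyp2b13 region and the 2 Cyp2b19 regions.

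The receptor gene is described first. Nr1i3 had a region over its start site (chr1:171213727-171214206), which covered 293 of the 300 bases of the promoter window, and a second 717 to 1117 bases upstream of the start (chr1:171212853-171213253). The upstream region was called in wild type 1 and 2 with deposited folds of 5.1 and 6.52, in Cpt2 knockout 1 and 2 with folds of 8.31 and 8.4, and in no Ppara-lacking library. Its −log10 p was 24.6, 49.4, 66 and 73.5 in that order, and the 4 summits lay within 43 bp. Both Cpt2 knockouts thus stood above both wild types in this region, an order of 2 libraries against 2 that is given as a description only. These calls were the same in equal-number lists, with −log10 q limited to 20 or more, and when peaks had to cover 50% of the region. By mean percentile of −log10 p in the Ppara-carrying lists (65.8) it ranked 140 among the 3384 regions called in those libraries alone.

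The region over the Nr1i3 start site was called in 6 libraries. Its folds were 9.44 and 8.19 in wild type, 7.9 and 5.77 in Cpt2 knockout, 4.1 in Ppara knockout 1 and 5.5 in double knockout 1, and no peak was called in Ppara knockout 2 or double knockout 2. The −log10 p was 73.8, 75.9, 62.5 and 40.1 in the Ppara-carrying libraries, 14.2 in Ppara knockout 1 and 23.7 in double knockout 1, so every Ppara-carrying value was above both Ppara-lacking ones. Here wild type stood above Cpt2 knockout, the reverse of the order in the upstream region. With 2 libraries of each genotype, neither order is read as an effect of Cpt2. Both regions together gave 2 calls in each Ppara-carrying library and 0 or 1 in the Ppara-lacking ones (2 ± 0 and 0.5 ± 0.577, SD, n = 4 each), and the difference of -1.5 was the same in equal-number lists. Among the 9 other regions from Pcp4l1 to Fcer1g around the gene, none was called in all 4 Ppara-carrying libraries alone and 3 were called in all 8 (near Pcp4l1, in Tomm40l, and in the overlap of Tomm40l with Apoa2, an apolipoprotein gene). Over all consensus regions these shares were 6.82% and 22.7%. With 9 regions, the counts are not read as setting Nr1i3 apart from its neighbours.

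At Cyp2b10, the classical CAR target, 8 regions were called, from 13355 bases upstream to 90996 bases downstream of the start. The region nearest to the start on the upstream side (chr7:25895224-25895560, 2098 to 2434 bases before it) was called in all Ppara-carrying and no Ppara-lacking library. The phenobarbital-responsive enhancer module through which CAR acts on Cyp2b10 is known to lie upstream of the gene's promoter; the sequence of this region was not read here. Its folds were 4.51 and 5.5 in wild type and 5.49 and 5.07 in Cpt2 knockout, below the median fold of each list, and its −log10 p was 14.5, 21, 24.8 and 16.2. The 4 summits lay within 37 bp. It was a weak peak of each list, at percentiles of 14.6 to 35.8, and in equal-number lists no library called it. With −log10 q limited to 20 or more, Cpt2 knockout 1 alone called it.

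Farther upstream, 4103 to 4490 bases before the start, lay the region of Cyp2b10 that was called in all 8 libraries (chr7:25893168-25893555). Its folds were 7.81 and 6.24 in wild type, 8.92 and 8.29 in Cpt2 knockout, 5.91 and 5.87 in Ppara knockout and 5.96 and 5.99 in double knockout. The −log10 p was 37.9, 29.9, 62 and 41.2 in the Ppara-carrying and 21.9, 18.6, 18.4 and 23.1 in the Ppara-lacking libraries. The lowest Ppara-carrying value, that of wild type 2, was above the highest Ppara-lacking value on both scales, while the median folds of the lists also differed in this direction. By rank within each list the 2 groups overlapped, at percentiles of 41.4 to 72.4 and 36.9 to 56.4. With −log10 q limited to 20 or more, the 4 libraries with Ppara called it and none without, as did 9% of all regions. Double knockout 2, at 19.8, and Ppara knockout 1, at 18.8, lay just under this limit. In equal-number lists wild type 2 alone did not call it. The 8 summits lay within 53 bp.

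The promoter of Cyp2b10 was called in few libraries. The region over the start site (chr7:25897443-25897727), which covered 265 bases of the promoter window, had a fold of 5.98 in wild type 2 and 4.09 in Cpt2 knockout 1 and no peak in the other 6 libraries. A region inside the gene, 21873 to 22169 bases after the start, was called in wild type 2 with a fold of 7.06, in both Cpt2 knockouts with folds of 5.49 and 9.15, and in no other library. The region 9514 to 9862 bases upstream was called in wild type 2, both Cpt2 knockouts and double knockout 2, with folds of 7.04, 6.84, 5.98 and 5.2. In equal-number lists double knockout 2 alone called it, so its direction by Ppara status turned. The remaining 3 regions were each called once, in wild type 2 or Cpt2 knockout 2, with folds of 6.45 to 7.26. Wild type 1, both Ppara knockouts and double knockout 1 called none of these 6 regions.

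**Figure D3:**
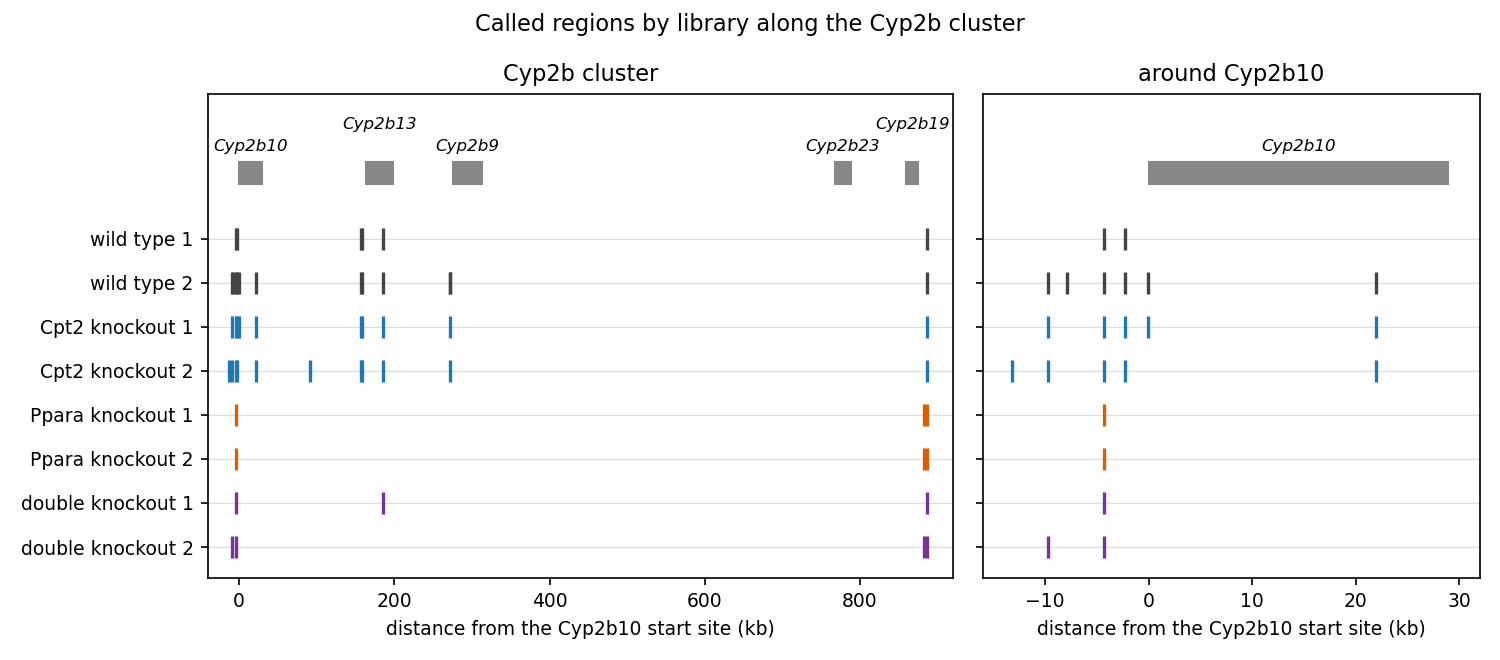
Called regions of the Cyp2b genes in each library (ticks, coloured by genotype) against the distance from the Cyp2b10 start site in kb, with gene spans as grey bars; the right panel enlarges the surroundings of Cyp2b10. Near Cyp2b10 every Ppara-lacking library keeps the region about 4.1 kb upstream, and double knockout 2 also has the one 9514 bases upstream. The 2 regions before Cyp2b13, drawn as 1 tick at this scale, are missing from the Ppara-lacking libraries.

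Cyp2b13 and Cyp2b9, the pair with nearly equal promoters, each had 2 adjacent regions upstream and none at the start site. Before Cyp2b13 the pair was separated by 83 bp (chr7:26054855-26055198 and chr7:26055282-26055610), and before Cyp2b9 by 67 bp (chr7:26168812-26169089 and chr7:26169157-26169502). The pair of Cyp2b13 lay 5885 to 6640 bases before the start and that of Cyp2b9 3907 to 4597 bases. The sequences of the pairs were not compared. Both regions of Cyp2b13 were called in all 4 Ppara-carrying and no Ppara-lacking library. The first had folds of 5.89 and 11.97 in wild type and 7.06 and 10.59 in Cpt2 knockout, and the second 5.1 and 7.26 in wild type and 10.01 and 6.87 in Cpt2 knockout. The values of the 2 genotypes overlapped in both regions. In equal-number lists 2 Ppara-carrying libraries called the first region and none the second.

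The 2 regions before Cyp2b9 were called in fewer libraries. The first was called in wild type 2 and Cpt2 knockout 2 with folds of 6.28 and 5.69, and the second in wild type 2 and Cpt2 knockout 1 with folds of 6.47 and 6.87. No Ppara-lacking library called either, and in equal-number lists no library did. No region lay inside Cyp2b9.

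Inside Cyp2b13, 21092 to 21492 bases after the start, lay the region with the highest fold of the 17 (chr7:26082587-26082987). Its folds were 9.42 and 14.01 in wild type, 13.49 and 14.21 in Cpt2 knockout and 4.86 in double knockout 1, and both Ppara knockouts and double knockout 2 had no peak. The −log10 p was 33.4, 66.3, 61.9 and 71.3 in the Ppara-carrying libraries and 12.5 in double knockout 1. In equal-number lists, and with −log10 q limited to 20 or more, it was called in each library with Ppara and in none without. At the q limit 9% of all regions were called so. With Nr1i3's upstream region it was thus one of the 2 that separated Ppara status in equal-number lists, where 0.811% of all regions did so.

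Cyp2b23 had no region. The nearest consensus regions lay 308132 bp before it, next to Nlrp9c, and 93408 bp after it, next to Cyp2b19, which leaves 422742 bp without a consensus region. Calls were counted at consensus regions only, so a peak outside them would not appear here.

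Cyp2b19 had 2 regions, both beyond the end of the gene, and their calls differed from each other. The first (chr7:26779838-26780188, 7208 bp from the gene) was called in Ppara knockout 1 and 2 and double knockout 2 and in none of the 4 Ppara-carrying libraries. Its folds were 7.84, 8.76 and 8.29, its −log10 p 45.7, 47.3 and 51.9, and its percentile within the lists 88.2, 91.1 and 90.7. The 3 peaks were 328 to 347 bp wide and their summits lay within 3 bp. Double knockout 1 had no peak there, as was so in the 4 Ppara-carrying libraries. Any of these libraries may hold signal under the authors' threshold, so their likeness is one of calls only. The calls did not change in equal-number lists, with −log10 q limited to 20 or more, or at 50% cover. The same 8 calls were found at 12 of all consensus regions (0.0242%), and at the 11 others the −log10 p was 10 to 26.2, below each of the 3 values here. The pattern searched for was taken from this region after its calls were seen. Neither the share nor the order of the −log10 p values therefore measures how unusual the region is. In 3 or 4 libraries without Ppara and none with it, 0.268% of all regions were called.

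The second region of Cyp2b19, 10573 bp from the gene (chr7:26783203-26783739), was called in all 8 libraries. Its folds were 9.75 and 13.59 in wild type, 13.28 and 13.31 in Cpt2 knockout, 4.92 and 5.43 in Ppara knockout and 9.86 and 7.64 in double knockout. The −log10 p was 62.3, 105.2, 114.6 and 119.8 in the Ppara-carrying libraries, 17.8 and 19.2 in Ppara knockout and 73.6 and 39.8 in double knockout. Ppara knockout gave the lowest values, and double knockout 1, which lacked the neighbouring peak, lay above wild type 1 on both scales. With −log10 q limited to 20 or more, all 4 libraries with Ppara and the 2 double knockouts called it. Within the lists, the percentile was 81.1 to 94.9 in the Ppara-carrying libraries, 37 and 48.4 in Ppara knockout and 94.6 and 83.1 in double knockout. The first region had the higher fold in both Ppara knockouts and in double knockout 2, while in double knockout 1 and the 4 libraries with Ppara the second alone was called.

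**Figure D4:**
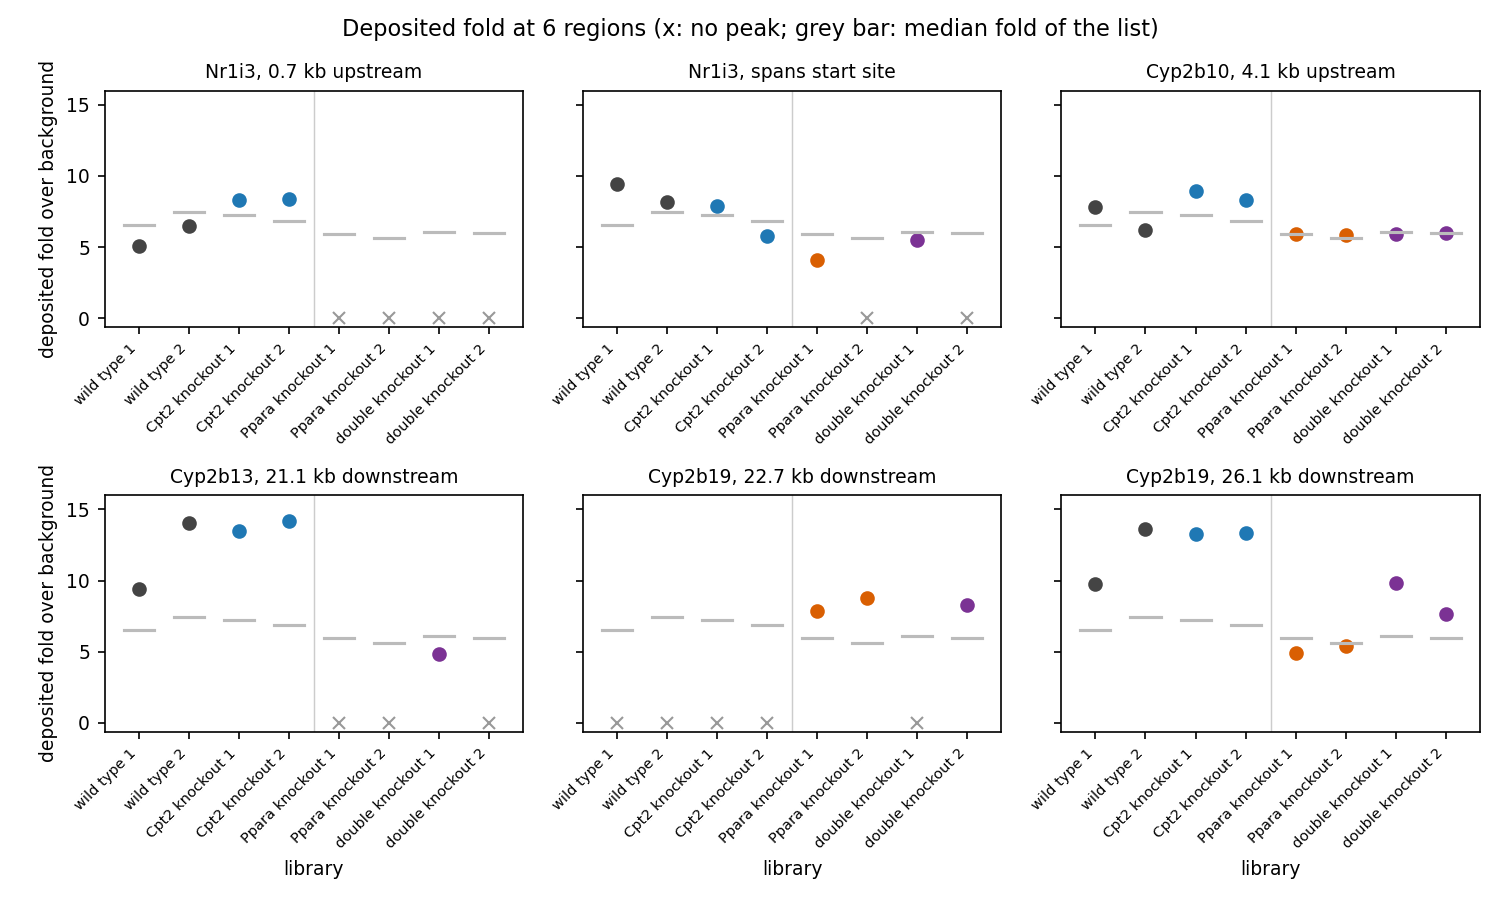
Deposited fold over the local background (vertical axis) in each library at 6 regions named by gene and distance to the start site; points are coloured by genotype, crosses mark no peak and are drawn at 0, and grey bars give the median fold of the whole list. At the Cyp2b19 region that begins 22696 bases after the start, 3 Ppara-lacking libraries lie at 7.84 to 8.76 and no other has a peak, and at the one beyond it Ppara knockout lies at 4.92 and 5.43 with the Ppara-carrying libraries at 9.75 to 13.59.

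Pairs of genotypes were then compared, counting a region where both libraries of a genotype called it and those of the other did not. These pairs share libraries, so their counts are not independent. Between Ppara knockout and wild type, 5 of the 17 regions were called in wild type alone, which were the 4 that followed Ppara status and the region inside Cyp2b13, where 13.6% of all regions were called so. The only region called in Ppara knockout alone was the first of Cyp2b19, where 0.46% of all were, and it ranked 2 of 228 by mean percentile. Without wild type 1 the total for this pair was 12 in place of 6. Of these, 11 were called in wild type alone (29.8% of all) and 1 only in Ppara knockout (0.643% of all). Between double knockout and wild type, 4 regions were called in wild type alone (12.9% of all) and none only in double knockout (1.2% of all). Without wild type 1 this total was 9, with 29.6% of all regions called in wild type alone. Without double knockout 1 it was 7, of which 6 were called in wild type alone (21.3% of all). The other 1, the first region of Cyp2b19, was called only in double knockout (2.85% of all).

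Double knockout was then set against Cpt2 knockout, so that both sides lacked Cpt2. Of the 17 regions, 5 were called only in Cpt2 knockout, the 4 that followed Ppara status and the region inside Cyp2b10, against 20.4% of all regions, and none only in double knockout, against 0.597%. Without Cpt2 knockout 1 the total was 8, all only in Cpt2 knockout (28.4% of all regions). Without Cpt2 knockout 2 it was 7 (34.5%) and without double knockout 2 it was 6 (22.8%), again all only in Cpt2 knockout. Without double knockout 1 it was 8, of which 7 were only in Cpt2 knockout (29.9%) and 1 only in double knockout (1.91%). Loss of Cpt2 alone separated no region of these genes: none was called only in Cpt2 knockout (3.63% of all) or only in wild type (0.512% of all). Double knockout against Ppara knockout likewise gave none in either direction, where 2.33% and 1.45% of all regions were separated. With 1 library left out, these 2 comparisons gave 0 to 2 regions. For the first, 2 were only in Cpt2 knockout without wild type 2 (12% of all regions) or without Cpt2 knockout 1 (9.83%). Without wild type 1, 1 was only in wild type (5.37%). For the second, without double knockout 2, 1 was only in double knockout (8.48% of all) and 1 only in Ppara knockout (2.13%). Without double knockout 1, 1 was only in double knockout (4.85%). A count of 0 with 2 libraries a side does not show that the genotypes were alike.

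The cluster's neighbours gave a frame for these counts. Between Cyp2s1 and Cyp2t4, 32 further regions were assigned to other genes, of which 4 were called in each library with Ppara and none without and 2 in all 8, beside 3 and 2 of the 15 Cyp2b regions. Over all consensus regions these shares were 6.82% and 22.7%. At least 1 Ppara-lacking and no Ppara-carrying library called 2 of the 32 and 1 of the 15, against 5.43% of all regions. The genes whose share of called regions over the 8 libraries was most like that of the Cyp2b regions were sought among 6186 genes with at least 3 regions, by the mean absolute difference in percentage points. They were Gucy1b1 and Nt5c3 (2.5 points each, 5 regions each), Pnpla8 (3.3 points, 5 regions), Gucd1 (4.2 points, 9 regions) and Ski (4.8 points, 11 regions). Shares over so few regions take few values, and all regions together also had lower shares in the Ppara-lacking libraries.

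Other genes of xenobiotic sensing were taken from a list of 41 genes for receptors, partners and known targets of CAR and related receptors. Of these, 39 had a region, 238 in all. Called in all 4 Ppara-carrying and no Ppara-lacking library were 19 regions of 15 genes (7.98%, against 6.82% of all regions). None was called the reverse way (0.0686% of all), and 53 were called in all 8 (22.3%, against 22.7% of all). The highest ranked by mean percentile was a region inside Sult1a1, a phenol sulfotransferase (chr7:126681116-126681527), called in the 4 Ppara-carrying libraries and in no other. Regions inside Foxo1, a transcription factor of the fasting response (chr3:52290667-52291340), and Egfr, the epidermal growth factor receptor whose signalling restrains CAR (chr11:16795049-16795433), had the same calls. Regions inside Aldh1a1, a retinaldehyde dehydrogenase (chr19:20529884-20530281), and inside the transporter genes Abcc3 (chr11:94388986-94389408) and Abcc2 (chr19:43792385-43792916) were called in the 4 Ppara-carrying libraries and 1 double knockout.

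Of this list, 2 further regions had other patterns. One inside Aldh1a7 (chr19:20727401-20727836) was called in all libraries but the 2 Ppara knockouts. Another 707 bp from Cyp3a25, a cytochrome P450 of the family regulated by the pregnane X receptor (chr5:145975496-145976485), was called in wild type 2 and all 4 Ppara-lacking libraries and in neither Cpt2 knockout. Of the pathway's regions, 42 were called only in wild type against Ppara knockout (17.65%, beside 13.6% of all) and none only in Ppara knockout (beside 0.46% of all). Against double knockout, 46 were called only in Cpt2 knockout (19.33%, beside 20.4%) and 2 only in double knockout (0.84%, beside 0.597%).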

How the data were processed

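ATAC-seq of fasted mouse liver gave 8 libraries, 2 for each of 4 genotypes. The submitters' processing notes name BWA, MACS2 2.1.0 and mm10. The authors deposited 1 peak list per library, with a score, a fold (ratio of the summit pileup to the local background), and a −log10 p and −log10 q for each peak. The score is 10 times the −log10 p, rounded down, in at least 99.995% of peaks of each deposited list. A deposited table gave consensus positions; it was used for its first track and holds no counts. Read depth and duplicate handling are not given in the sources used here, so no interval or floor is given.

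Regions were assigned to the nearest of 21896 protein-coding genes (RefSeq, GRCm38.p6) within 100 kb and called at 1 bp of overlap. Python 3.11.15, NumPy 2.4.6, pandas 2.3.3 and matplotlib 3.10.9 were used, and overlap, distance and counting were tested on simulated data. Promoter windows were aligned globally without penalty on end gaps.

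No model was fitted, because the files give calls and not counts. Described in full were regions called in every library of 1 genotype and none of another, in all 8 libraries or within 1 kb of a gene, and of the others those called in 4 or more libraries. The 8 pathway genes named were those with the highest mean percentile among genes with a separated region. The members, lists and alternatives were chosen with earlier results of these data known. Alternatives were equal-number lists, a −log10 q of at least 20, 50% cover, a limit of 20 kb and leaving out each library; those for single regions were added after seeing the data.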

Additional observations from a re-analysis of the deposited data

Results flagged for a closer look

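In 3 of 14 checks over the 4 libraries of 1 Ppara status, 1 library stood apart from the other 3 by more than Dixon's critical value; chance flags about 1 in 20. At the region inside Cyp2b13 (26082587), the fold of wild type 1 was 9.42, beside 13.49 to 14.21. At the second region of Cyp2b19 (26783203), the fold of wild type 1 was 9.75, beside 13.28 to 13.59. Wild type 1 also had the shortest Ppara-carrying list, with 28733 peaks; the part of list length in these folds was not tested. Double knockout 2 called 4 Cyp2b regions, where the other 3 Ppara-lacking libraries called 3 each; with 3 equal counts any difference is past this value, so nothing is read from it.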

How the results depend on the processing

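Among alternative values for the 8 counts and differences, 58 stayed within 1.5 times the count or within 1 SD, 18 moved and none turned direction; the cause was not tested beyond what each alternative does by construction. In equal-number lists, which hold fewer peaks, the separated regions numbered 2 by Ppara status, 3 between Ppara knockout and wild type, 2 between double knockout and wild type and 2 between double and Cpt2 knockout (shares of all regions on the Ppara-carrying side 0.811%, 3.44%, 3.35% and 2.99%). Of the 3, 1 was called only in Ppara knockout, where 2.38% of all regions were. The difference in called Cyp2b regions was -0.5 in these lists. At a −log10 q of at least 20 it was -4. At this limit double knockout against Cpt2 knockout gave 3 regions, all only in Cpt2 knockout (20.6% of all). Double knockout against Ppara knockout gave 1, only in double knockout (1.85% of all). With 1 library left out, counts of both directions together can only grow by construction, as can the shares of all regions. They were 4 to 6 by Ppara status (7.22% to 11.8% of all regions on the Ppara-carrying side). Between Ppara knockout and wild type they were 6 to 12 (17.4% to 29.8% only in wild type). Between double knockout and wild type they were 4 to 9 (14.9% to 29.6% only in wild type). Between double and Cpt2 knockout they were 6 to 8 (22.8% to 34.5% only in Cpt2 knockout). Counts were 0 to 2 for both Cpt2 knockout against wild type and double knockout against Ppara knockout. There each direction held 1.21% to 12% and 2.13% to 8.48% of all regions. The difference in called regions was then -7.75 to -5.75 for Cyp2b and -1.667 to -1.333 for Nr1i3. Of the values for single regions, 24 held, 26 moved and 1 turned direction, that of the Cyp2b10 region at 25887796 in equal-number lists, from -2 to 1 library. No paired analysis was possible because no result comes from a test. Depth limits what can be said: an uncalled region may hold signal under the authors' threshold.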
